A study of Mus musculus with 2 samples.

Results

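The vascular endothelial cells of the mouse lower incisor were taken from 1 pooled matrix of droplet-based single-cell RNA counts. Each captured transcript is counted once through its unique molecular identifier (UMI). A barcode was a member when it had at least 5 UMIs of Cdh5, Pecam1, Emcn, Kdr and Plvap together, with at least 3 of these 5 genes detected, no UMI of the leukocyte gene Ptprc and at most 1 UMI of the epithelial genes Epcam and Cdh1. It also had to have at least 500 detected genes, at most 20% of its UMIs from mitochondrial genes and at most 5% from haemoglobin genes. These filters on the whole matrix kept 4543 barcodes, of which 76 were members (1.673%, exact Clopper-Pearson 95% interval 1.32 to 2.089%).

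The tissue was dental pulp with its epithelium from the mandibles of untreated C57BL/6 mice aged 4 weeks, digested with collagenase. The labels name the tissue as dental mesenchyme, give no treatment or genotype difference, and list 2 sample titles that differ only in the lane. The counts of both lanes form 1 matrix with no link from barcodes to titles or animals, and the number of animals is not given. All values below are therefore treated as 1 sample. No difference has a replicate check, no test was made, and every interval is a 95% interval for counting error only.

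Endothelial cells line blood vessels. They hold vessels closed through adherens and tight junctions, respond to vascular endothelial growth factors (VEGF) and angiopoietins through receptor tyrosine kinases, and lay down a basement membrane that they share with mural cells. Arteries, capillaries and veins differ in the genes their endothelium uses, with Notch ligands and gap junction proteins marking arterial cells and the nuclear receptor gene Nr2f2 marking venous cells. In the tooth, the capillary bed runs through the pulp and lies close beneath the odontoblasts, the cells that make dentin.

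The genes of the rule chose the members, so their levels are a description. Levels are given as CPM, the count of a gene scaled to 1000000 UMIs of its group, and compare 1 gene between groups, never genes with each other. The members summed to 513535 UMIs and the other 4467 kept barcodes to 34497880 UMIs. Emcn, a sialomucin of the vessel wall, stood at 1339.7 CPM in the members and 0.957 CPM in the other kept cells. Plvap, which forms the diaphragms of endothelial pores, stood at 1145 CPM in the members and 0.899 CPM in the others. Cdh5, the adherens junction cadherin of endothelium, stood at 889.9 CPM in the members and 0.783 CPM in the others. Kdr, the main VEGF receptor, stood at 590.03 CPM in the members and 0.928 CPM in the others, and Pecam1, a junctional adhesion molecule also carried by leukocytes and platelets, at 529.7 CPM in the members and 3.04 CPM in the others. All 5 genes were detected in 58 members, 4 genes in 12 members and 3 genes in 6 members. A member held between 6 and 113 UMIs of the 5 genes, with a median of 23.

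The threshold lay in a sparse range. Only 1 member held 5 to 7 UMIs of the rule genes, and among the other kept barcodes 4309 held none, 141 held 1, 8 held 2, 4 held 3 and 1 held 4. The 3 members with 5 to 8 such UMIs had 5 UMIs of Flt1 and 18 of Cldn5 between them, each gene present in all 3. The barcode with 4 rule UMIs had 1 UMI of Flt1 and 2 of Cldn5, and the 4 barcodes with 3 rule UMIs had 2 of Flt1, all in 1 of them, and 0 of Cldn5. These 4 barcodes held 7143 UMIs of the enamel matrix gene Amelx. Another 2 barcodes reached 5 rule UMIs from fewer than 3 genes, and 2 met the gene rule but had a Ptprc UMI. Among 7442 barcodes with at least 100 but under 500 genes, 0 met the gene rule.

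The members had a median of 4634.5 UMIs (752 to 28392) and 1960 detected genes, against a median of 5831 UMIs and 1910 genes in the other kept cells. Their median mitochondrial share was 6.658%, against 7.265% in the other kept cells. As cells that should lack vascular genes, 3 groups were gated by simple rules. The mesenchymal gate (no Ptprc, at most 1 UMI of Epcam and Cdh1, no rule gene, at least 20 UMIs of Col1a1 and Col1a2) held 1120 cells with a median of 8307 UMIs. The epithelial gate (no Ptprc, at least 3 UMIs of Epcam and Cdh1) held 341 cells with a median of 10759 UMIs. The immune gate (a Ptprc UMI, at most 1 UMI of Epcam and Cdh1) held 893 cells with a median of 3418 UMIs.

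Flt1 and Cldn5 are the endothelial markers given for these cells that the rule did not use, and their promoters are shown because both genes check the label. Flt1, a VEGF receptor that also acts as a decoy, lies at chr5:147561604-147726011 on the minus strand, and Cldn5, the main claudin of endothelial tight junctions, at chr16:18776847-18778262 on the plus strand (GENCODE M21, mouse build GRCm38). The 250 bases before each start are from RefSeq on GRCm38.p6, chr5:147726012-147726261 (minus strand) for Flt1 and chr16:18776597-18776846 (plus strand) for Cldn5. They are written 5′ to 3′ on the gene's strand, and capitals mark GGAAG or its reverse complement CTTCC, the core letters bound by ETS factors, a family that includes Erg, Fli1 and Ets1.
Flt1: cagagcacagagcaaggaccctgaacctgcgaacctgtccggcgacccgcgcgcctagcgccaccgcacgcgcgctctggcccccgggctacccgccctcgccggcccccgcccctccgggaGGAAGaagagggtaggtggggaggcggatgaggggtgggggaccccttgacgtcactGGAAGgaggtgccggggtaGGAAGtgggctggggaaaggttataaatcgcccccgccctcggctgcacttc
Cldn5: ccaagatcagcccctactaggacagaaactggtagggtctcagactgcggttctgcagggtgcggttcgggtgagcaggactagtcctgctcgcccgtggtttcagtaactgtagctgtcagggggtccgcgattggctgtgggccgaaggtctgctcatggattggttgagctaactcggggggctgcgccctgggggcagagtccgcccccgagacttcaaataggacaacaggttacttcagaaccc
The Flt1 window held 3 matches, and the letters are not in the Cldn5 window. The motif was chosen after several longer ETS and SOX motifs had been looked at, and it is common: 64.068% of all 32851 promoter windows of this length held it on either strand, against 9 of the 12 windows found for 10 of the 23 endothelial identity genes outside the rule. Nothing about a factor follows from these matches.

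The label held on the genes outside the rule. Flt1 was measured in 72 of the 76 members, with 0 to 25 UMIs per member and a median of 4, and summed to 835 CPM in the members (758 to 918) and 1.28 CPM in the other kept cells (log2 ratio 9.36, interval 8.91 to 9.84). Cldn5 was measured in 55 members, with 0 to 36 UMIs and a median of 2, and summed to 537 CPM in the members and 0.261 CPM in the others (log2 ratio 11.01, interval 10.06 to 12.15). The members without a UMI of a gene overlapped with the other cells at 0, more often for Cldn5 than for Flt1. Cells were then thinned to 2000 UMIs each, which left out the 5 members below that depth. A Cldn5 UMI was present in 49.296% of the 71 thinned members, against 0 of 1083 mesenchymal cells (up to 0.34%), 0.295% of epithelial cells and 0 of 670 immune cells (up to 0.549%). For Flt1 the thinned share was 76.056% of the members, against 0 of 1083 mesenchymal cells, 0 of 339 epithelial cells (up to 1.082%) and 0.597% of immune cells. The mesenchymal gate had left out cells with a UMI of a rule gene, so its shares are no independent background. The epithelial and immune gates set no condition on the rule genes. The 2 barcodes with a Ptprc UMI that met the gene rule were not left out on that ground. Without thinning the shares in the members were 72.368% for Cldn5 and 94.737% for Flt1, against at most 0.587% and 2.346% in the gated cells. Barcodes of 1 to 20 UMIs, which give the level of RNA outside cells, held Flt1 at 21.5 CPM and Cldn5 at 28.8 CPM.

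All 23 identity genes outside the rule were higher in the members, where "higher" or "lower" means a ratio of at least 2-fold with an interval that does not include 1, for genes with at least 30 UMIs over both sides. Over all 14009 genes measured outside the rule, 12.6% were higher and 9.39% lower in the members by the same criterion, with a median log2 ratio of 0.18. The identity genes had a median log2 ratio of 8.47 and summed to 11835.6 CPM in the members, against 99.1 CPM in the other kept cells. Because the 5 rule genes mark the same cells, these ratios describe the members and are no independent evidence of the rule. Robo4, an endothelial guidance receptor, had 72 UMIs over 37 members and 1 UMI elsewhere. Egfl7, a matrix protein that endothelium secretes, was found in 75 members with a median of 12 UMIs, at 2247 CPM in the members and 18.8 CPM in the others. Eng, a co-receptor for BMP9, was found in 72 members at 728 CPM, against 10.2 CPM in the others. Vwf, the clotting glycoprotein stored in Weibel-Palade bodies, was high in a part of the members, with UMIs in 39 of 76 and up to 35 in 1 cell.

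**Figure D1:**
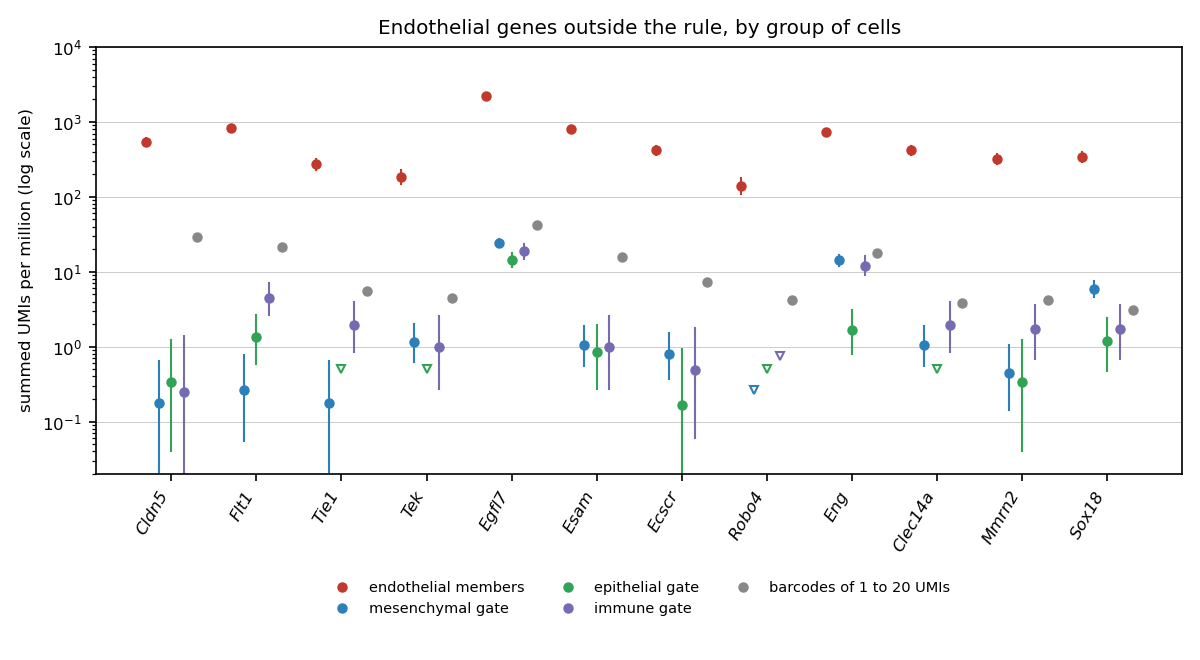
Summed UMIs in CPM (log scale) of 12 endothelial genes that the rule did not use, in the endothelial members, the mesenchymal, epithelial and immune gates, and barcodes of 1 to 20 UMIs. Points are sums over a group, lines are 95% Poisson intervals (cut at the axis), and open triangles mark the level of 3 UMIs where a gated group had 0. The members lie between 140 CPM (Robo4) and 2247 CPM (Egfl7), above every gated group.

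The 20 genes with the highest ratio outside the rule, after 5 CPM was added to both sides, were led by Tm4sf1, a tetraspanin-like surface protein, at 1644 CPM in the members and 2.15 CPM in the others. Next came Flt1, Esam, Ly6c1, Ptprb, Cldn5, Egfl7, Cd34, Ctla2a, Podxl, Ecscr, Slco2a1, Gpihbp1, Slc9a3r2, Clec14a, Epas1, Vwf, Ly6a, Sox17 and Mmrn2. Podxl and Cd34, sialomucins that cover the luminal surface, stood at 419 and 598 CPM in the members, against 0.493 and 1.48 CPM in the others. Slco2a1, a prostaglandin transporter, was found in 59 members and stood at 442 CPM in the members, against 1.01 CPM in the others. Epas1, which encodes the hypoxia factor HIF-2 alpha, was found in 65 members and stood at 656 CPM in the members, against 4.52 CPM in the others.

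**Figure D2:**
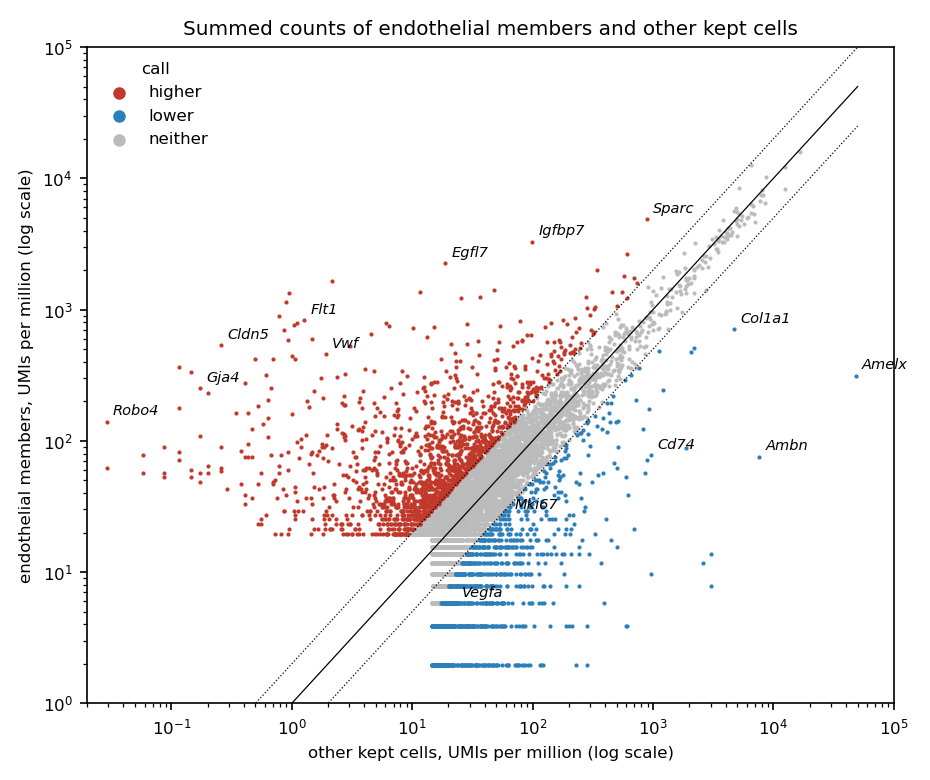
Summed UMIs in CPM (both axes log scale) of the measured genes in the endothelial members (vertical) and the other kept cells (horizontal), coloured by the 2-fold criterion. The solid line marks equal levels and the dotted lines 2-fold, and genes with 0 UMIs on either side are not drawn. Robo4, Cldn5, Gja4 and Flt1 lie at the upper left and Amelx and Ambn at the lower right.

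On the list of VEGF and angiopoietin receptors and related genes 8 of 8 were higher, against 12.6% of all measured genes, with a median log2 ratio of 7.32. It held Flt1, Flt4, Tek, Tie1 and the co-receptor genes Nrp1 and Nrp2, and besides these the phosphatase gene Ptprb and the adrenomedullin receptor gene Calcrl. Tie1 and Tek, the angiopoietin receptor pair, stood at 275 and 185 CPM in the members and 0.406 and 0.522 CPM in the other kept cells. Ptprb, a phosphatase that acts on Tek and Cdh5, was found in 64 members and stood at 703 CPM in the members, against 0.870 CPM in the others. Flt4, the VEGF-C receptor, was sparse, with 29 UMIs over 22 members and no more than 2 in 1 cell (56.5 CPM in the members, 0.783 CPM in the others). The co-receptors Nrp1 and Nrp2, which also bind semaphorins, were less restricted. Nrp2 stood at 183 CPM in the members, 86.7 CPM in the mesenchymal gate and 50.3 CPM in the immune gate.

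On the ligand list, which held VEGF and angiopoietin genes, Adm and Apln, 3 of 10 measured genes were higher and 1 was lower in the members. The higher ones were Vegfc, Pgf and Apln, and Apln binds a receptor outside the list above. Vegfa, the main ligand of Kdr, had only 3 UMIs over the members (5.84 CPM, 1.20 to 17.1), against 29.6 CPM in the mesenchymal gate, 26.5 CPM in the epithelial gate and 10.4 CPM in the immune gate, and was lower than in all other kept cells (log2 ratio -1.97). Angpt1, the activating ligand of Tek, had 2 UMIs in 1 member (3.89 CPM), against 24.5 CPM in the mesenchymal gate, and its ratio to all other kept cells did not pass the criterion (log2 ratio -1.57, interval -4.62 to 0.29). Vegfb had 38.9 CPM in the members, 39.5 CPM in the mesenchymal gate, 38.0 CPM in the epithelial gate and 32.6 CPM in the immune gate.

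Vegfc, the ligand of Flt4, was higher in the members, with 45 UMIs over 19 cells and 14 of them in 1 cell (87.6 CPM in the members, against 7.92 CPM in the mesenchymal gate, 3.85 CPM in the epithelial gate and 0.987 CPM in the immune gate). Apln, the apelin peptide of sprouting vessels, had 33 UMIs over 18 members (64.3 CPM) and at most 1.07 CPM in a gated group, and its receptor gene Aplnr had 84 UMIs over 30 members and 15 UMIs in all other kept cells. Angpt2 had 2 UMIs over the members. Pgf was called higher on 15 UMIs that lay in 4 members.

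**Figure D3:**
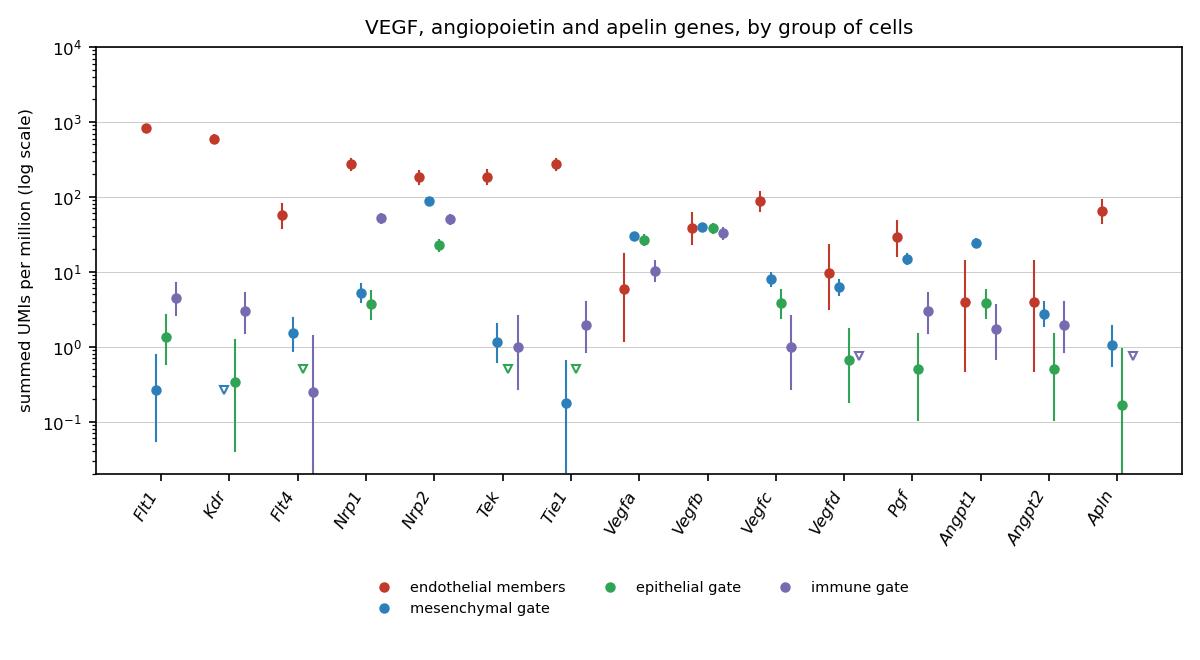
Summed UMIs in CPM (log scale) of VEGF, angiopoietin and apelin receptors and ligands in the endothelial members and the mesenchymal, epithelial and immune gates, drawn as points with 95% Poisson intervals (cut at the axis) and open triangles at 3 UMIs where a group had 0. Kdr is a gene of the rule. Receptors lie highest in the members, whereas Vegfa lies at 5.84 CPM in the members and at 29.6 CPM in the mesenchymal gate.

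Other ligands and receptors were also divided between the members and the gated cells. Kitl, which encodes stem cell factor, was found in 39 members at 179 CPM, against 6.94 CPM in the mesenchymal gate, 25.8 CPM in the epithelial gate and 14.3 CPM in the immune gate. Pdgfb, which recruits mural cells, stood at 62.3 CPM in the members, 0.178 CPM in the mesenchymal gate and 23.4 CPM in the immune gate, whereas its receptor gene Pdgfrb stood at 17.5 CPM in the members, nearly all in 1 cell (8 of 9 UMIs), and at 50.7 CPM in the mesenchymal gate. Edn1, which encodes the vasoconstrictor endothelin, had 69 UMIs over 24 members (134 CPM) and 0 UMIs in the mesenchymal gate. Its receptor genes were divided, with Ednrb at 119 CPM in the members and 0.178 CPM in the mesenchymal gate, and Ednra at 0 UMIs in the members (a count of 0 allows up to 5.84 CPM) and 32.4 CPM in the mesenchymal gate. Igf1 was lower, at 35.1 CPM in the members, 11 of its 18 UMIs in 1 cell, and 448 CPM in the mesenchymal gate. Plxnd1, a semaphorin receptor of endothelium, was found in 64 members at 368 CPM, and its ligand gene Sema3e had 0 UMIs in the members, 11.8 CPM in the mesenchymal gate and 23.6 CPM in the epithelial gate. On the guidance list 13 of 21 genes were higher and 1, Slit3, was lower, against 5 lower with the mesenchymal gate as the comparison. With that gate, 1660 of all 11602 measured genes were higher and 1318 lower. Over the 29 measured secreted factors, 17 were higher and 3 lower in the members. Igfbp7, which binds insulin-like growth factors and collagen IV, was found in 75 members with a median of 14.5 UMIs (3285 CPM in the members, 99.1 CPM in the others), and Cxcl10 and Tgfb2 were the other lower genes beside Igf1.

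The vasoactive genes were higher in 12 of 15 cases and lower in 2. Nos3, which makes nitric oxide in endothelium, had 42 UMIs over 24 members (81.8 CPM in the members, 1.48 CPM in the others). Ramp2 and Calcrl, which together form the adrenomedullin receptor, stood at 1227 and 239.5 CPM in the members, against 25.5 and 3.88 CPM in the others. Ptgs1 and Ece1 were also higher, at 158 and 306 CPM in the members and 7.01 and 20.7 CPM in the others. Ptgs2, the inducible cyclooxygenase, and Ednra had 0 UMIs in the members.

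Transcription factors of the endothelial list were higher in 23 of 24 measured cases, and only Mef2c, at 271 CPM in the members and 148 CPM in the others, did not reach 2-fold. Among the SOXF genes, Sox17 had 171 UMIs over 47 members and 5 UMIs elsewhere, Sox7 42 UMIs over 29 members and 4 elsewhere, and Sox18 stood at 341 CPM in the members and 4.78 CPM in the others. Tcf15, a factor of capillary endothelium that handles fatty acids, had 40 UMIs over 19 members and 2 elsewhere. Foxc1 was found in 28 members (95.4 CPM, against 0.435 CPM in the others) and Gata2 in 25. Erg, the ETS factor that marks endothelium, was below the minimum count, with 3 UMIs over 3 members, whereas Ets1 stood at 343 CPM in the members and 19.2 CPM in the others and Fli1 at 152 CPM in the members and 18.7 CPM in the others. Klf2, a gene induced by flow, was found in 57 members (489 CPM in the members, 50.7 CPM in the others). Meox2 and Etv2 had 0 UMIs in the members.

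Of the junction genes 12 of 20 were higher and 4 lower. Esam and Jam2, adhesion molecules of tight junctions, stood at 793 and 101 CPM in the members, against 1.10 and 2.78 CPM in the others. Gja4 and Gja5, gap junction proteins of arterial endothelium, had 129 UMIs over 17 members and 29 UMIs over 6 members. The lower ones were Gja1, at 113 CPM in the members and 290.1 CPM in the others, Cdh2, Cldn1 and Cldn10, which are used by mesenchyme or epithelium. Tjp1, a scaffold of tight junctions, was higher at 109 CPM in the members and 33.6 CPM in the others, and beta-catenin (Ctnnb1) stood at 641 CPM in the members and 484 CPM in the others.

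The basement membrane list was higher in 14 of 15 cases, with a median log2 ratio of 3.28. Col4a1 and Col4a2, the collagen IV chains, stood at 1404 and 775 CPM in the members and 48.1 and 28.7 CPM in the others, and Col4a1 was found in 73 members with a median of 5.5 UMIs. Col15a1, a collagen at the outer face of capillary basement membranes, had 46 UMIs over 19 members and 41 UMIs in all other kept cells. Hspg2 (perlecan) was found in 69 members at 586 CPM, against 81.3 CPM in the others. Sparc, a collagen-binding protein, had a UMI in all 76 members, at 4878 CPM in the members and 884 CPM in the others. Fn1 had 206 CPM in the members and 135 CPM in the others and did not reach 2-fold, and Nid1 stood at 253 CPM in the members and 116 CPM in all other kept cells, but its log2 ratio against the mesenchymal gate was -0.08. Of 12 integrin genes 6 were higher and 3 lower. Itga1 and Itga6, which bind collagen and laminin, stood at 101 and 314 CPM in the members and 3.80 and 74.4 CPM in the others, whereas Itgav, Itga4 and Itgb5 were lower.

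**Figure D4:**
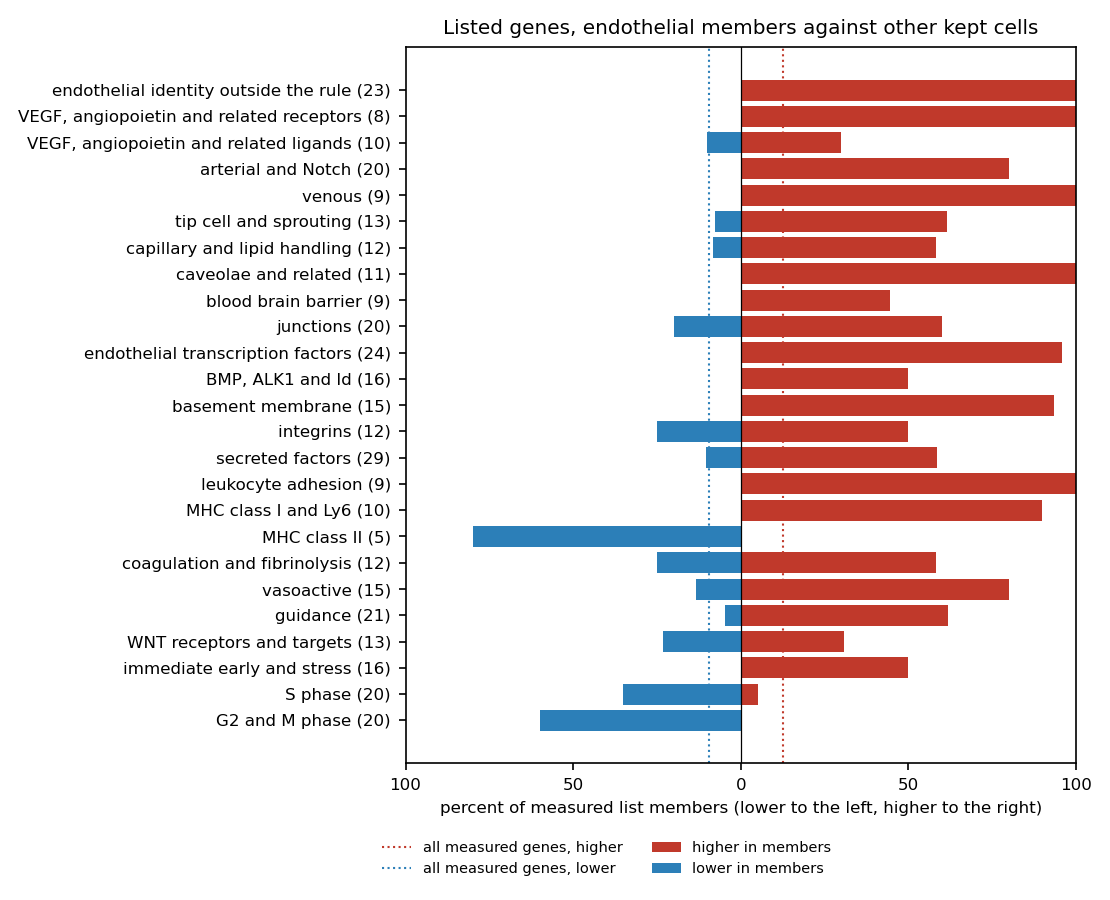
Share of the measured genes of each list (number in brackets) that were higher (right, red) or lower (left, blue) in the endothelial members than in all other kept cells. Dotted lines mark the shares over all 14009 measured genes, 12.6% higher and 9.39% lower. Every measured gene of the identity, receptor, venous, caveolae and leukocyte adhesion lists (as composed in the text) was higher, and the cell cycle and MHC class II lists lean to the lower side.

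Genes of caveolae and related membrane proteins were higher in 11 of 11 cases, a count that leaves out the diaphragm gene Plvap because the rule used it. Cav1, the coat protein of caveolae, was found in 56 members (302 CPM in the members, 1.74 CPM in the others), and Cavin2, which shapes them, in 48 (log2 ratio 6.46). Among genes of capillaries and lipid handling, 7 of 12 were higher and 1 lower. Gpihbp1, which carries lipoprotein lipase across capillary endothelium, had 188 UMIs over 43 members and 4 UMIs elsewhere, a level of 366 CPM in the members and 0.116 CPM in the others. The lipase gene Lpl had 1 UMI and the fatty acid transporter Cd36 6 UMIs in 1 member, so neither was called. Fabp4 was called higher on 109 UMIs that lay in 4 members, 59 of them in 1. Fabp5 was lower, at 13.6 CPM in the members and 209 CPM in the others. Car4 had 0 UMIs in all kept cells.

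Genes known for the blood-brain barrier were divided. Slco1a4, an organic anion transporter of brain endothelium, had 61 UMIs over 21 members and 0 UMIs in the other 4467 kept cells. Its log2 ratio was 10.42 when the zero is set to 3 UMIs, and the lower limit of its interval was 10.07. Abcb1a, the P-glycoprotein pump, had 39 UMIs over 27 members and 16 UMIs elsewhere. Slc2a1, the glucose transporter, had 10 UMIs over 8 members (19.5 CPM in the members, 4.96 CPM in the others). Mfsd2a had 1 UMI, and Slco1c1, Apcdd1 and Foxq1 had 0 in the members. Of the WNT genes 4 of 13 were higher and 3 lower. Fzd4 and its partner Tspan12, which act together at the endothelial surface, stood at 160 and 117 CPM in the members and 1.01 and 5.57 CPM in the others, while the target genes Axin2 and Lef1 had 9.74 and 25.3 CPM in the members against 15.8 and 19.6 CPM, and neither was called. The WNT inhibitor gene Notum was called lower, and its 28 member UMIs lay in 1 cell.

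On the arterial and Notch list 16 of 20 genes were higher and none was lower. The receptor genes Notch1 and Notch4 were found in 47 and 34 members (187 and 115 CPM in the members, 21.3 and 2.61 CPM in the others), and the ligand genes Dll4 and Jag1 in 25 and 27 (87.6 and 162 CPM in the members, 2.15 and 34.0 CPM in the others). Hes1, a Notch target used widely, was found in 67 members at 736 CPM, against 126 CPM in the others. Other Notch targets had few UMIs in the members, with 12 of Hey1 (23.4 CPM in the members, 22.4 CPM in the others) and 1 each of Hey2 and Heyl. In the BMP list 8 of 16 genes were higher and none lower. Beside Eng, the receptor gene Acvrl1 (ALK1) stood at 142 CPM in the members and 14.5 CPM in the others, and the target genes Id1 and Id3 at 409 and 1603 CPM in the members and 148 and 730 CPM in the others.

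All 9 measured venous genes were higher, among them Nr2f2, found in 42 members at 197 CPM, against 3.62 CPM in the others, and Ephb4, the receptor of ephrin B2, found in 49 members at 201 CPM, against 23.8 CPM in the others. The list of leukocyte adhesion was likewise higher in 9 of 9 cases. Icam2 stood at 308 CPM in the members and 2.38 CPM in the others, and Icam1 and Vcam1, which cytokines induce, at 164 and 64.3 CPM in the members and 38.5 and 24.5 CPM in the others. The selectin genes were near the floor, with 9 UMIs of Selp in 4 members and 2 of Sele, and Ackr1, the chemokine-binding protein of venules, had 16 UMIs over 8 members and 7 elsewhere. Antigen presentation divided by class. On the class I and Ly6 list 9 of 10 genes were higher, among them B2m at 905 CPM in the members and 298 CPM in the others, and H2-D1 at 1256 CPM in the members and 278 CPM in the others. On the class II list 0 of 5 were higher and 4 lower, with Cd74 at 77.9 CPM in the members, in 8 cells, and 958 CPM in the others. Against the mesenchymal gate alone, 2 class II genes were higher and 0 lower, where 1660 of all 11602 measured genes were higher and 1318 lower.

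Of 12 measured genes of coagulation and fibrinolysis, 7 were higher and 3 lower. Thrombomodulin (Thbd) and the protein C receptor gene Procr, which keep the vessel surface free of clots, stood at 105 and 50.6 CPM in the members and 6.15 and 0.725 CPM in the others. Plat, the tissue plasminogen activator, had 22 UMIs over 19 members. F2r, Plaur and Serpine2 were lower. Of 13 measured genes of tip cells and sprouting, 8 were higher and 1 lower. Mcam and Pdgfb were among the higher ones, and Cxcr4 had 40.9 CPM in the members and 42.0 CPM in the others. The log2 ratio of Cxcr4 was 3.20 against the mesenchymal gate and -1.10 with each cell weighted equally. Esm1, a proteoglycan gene of tip cells, had 20 UMIs over 11 members and 1 elsewhere, under the minimum count.

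Cell cycle genes were low in most members. On the G2 and M phase list 0 of 20 genes were higher and 12 lower, and on the S phase list 1 of 20 was higher and 7 lower. Over all measured genes 12.6% were higher and 9.39% lower. Across the alternative settings 2 to 15 G2 and M phase genes and 0 to 10 S phase genes were lower, both lowest when the whole interval had to lie beyond 2-fold. Of all 14009 measured genes, 578 were lower in that setting, and 2126 with no condition on the interval. Mki67, a gene of cycling cells, had 14 UMIs over 5 members (27.3 CPM in the members, against 61.5 CPM in the mesenchymal gate, 72.0 CPM in the epithelial gate and 76.8 CPM in the immune gate). After thinning to 2000 UMIs, 2.817% of members had an Mki67 UMI (0.343 to 9.808%), against 5.817% in the mesenchymal gate (4.499 to 7.382%), 10.029% in the epithelial gate (7.046 to 13.733%) and 7.910% in the immune gate (5.981 to 10.220%), and the members' interval includes all 3 values but that of the epithelial gate. Barcodes of 1 to 20 UMIs held Mki67 at 28.1 CPM, at the level of the members. The G2 and M phase UMIs were concentrated, as 4 members held 85.119% of the 168 UMIs. Immediate early and stress genes were higher in 8 of 16 cases and lower in none, led by the heat shock genes Hspa1b and Hspa1a (1049.6 and 1367 CPM in the members, 330 and 455 CPM in the others), each found in 42 members. For this list 2 genes were higher with each cell weighted equally and 15 against the mesenchymal gate. Over all measured genes, 1769 of 14009 were higher with equal weights and 1660 of 11602 against that gate.

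Markers of other cell types were mostly low or at 0. Krt14, Krt5, Cdh1, Dspp, Dmp1, Cd3e, Lyve1, Pdpn, Ppbp and Gp9 had 0 UMIs in the members. All 10 macrophage markers, 10 of 10 dental epithelial markers and 11 of 12 mesenchymal markers were lower than in the other kept cells. The macrophage list summed to 374 CPM in the members and 2805 CPM in the others, the mesenchymal list to 1275 and 8167 CPM, and the dental epithelial list to 425 and 59353 CPM. The mural list summed to 351 CPM in the members and 340.2 CPM in the others, with 3 of 12 genes higher, 3 lower, and Cspg4 and Des at 0. Of the other lists, 5 of 7 odontoblast genes and 5 of 11 lymphocyte and neutrophil genes were lower and none higher. Platelet genes were higher in 1 of 3 cases, lymphatic genes in 1 of 4 with 1 lower, erythroid genes lower in 1 of 5, and 0 of 3 glial genes were called. Against the mesenchymal gate alone, 6 macrophage genes were higher and 0 lower, and 4 dental epithelial genes were lower. Over all 11602 genes measured against that gate, 1660 were higher and 1318 lower. Dental epithelial UMIs were spread over 67 members, erythroid UMIs over all 76 and lymphatic UMIs over 25. The part of marker UMIs in any ratio above was not tested except where stated. By counts of collagen I, mural, macrophage and lymphocyte genes, 7 members held UMIs of another cell type: 4 had at least 10 UMIs of Col1a1 and Col1a2, 1 had at least 5 mural UMIs, 2 at least 5 macrophage UMIs and 1 at least 5 lymphocyte UMIs. These 7 held 88.244% of the mesenchymal, 91.667% of the mural and 67.188% of the macrophage marker UMIs of the members. All 116 UMIs of the pericyte gene Rgs5 lay in 1 member, and Rgs5 was called higher on them alone. Col1a1 had 363 UMIs, 307 of them in 1 member. Of the 7 members, 6 also had a doublet score above 0.15, as did 1 further member. In all, 7 of the 76 members lay above that score, against 108 of the 4543 kept barcodes (2.377%). Without the 7 members that held UMIs of another cell type, 1843 genes were higher and 1365 lower, against 1770 and 1316 with them. Among lymphatic markers, Prox1 had 5 UMIs over 4 members and Mmrn1 3 UMIs. Amelx UMIs were spread thinly, in 63 members with a median of 2 and at most 10, a level of 314 CPM in the members, against 48185 CPM in the other kept cells and 14928 CPM in barcodes of 1 to 20 UMIs. Among the genes found in at least 25% of the other kept cells, the 10 lowest in the members were Amelx, Ambn, Clu, Cd44, Bcl11a, Runx1, Sp6, Cd52, Coro1a and Plod2. Cd44 and Runx1 had 0 UMIs in the members, and 91.7 and 80.7 CPM in the others.

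The members differed among themselves in arterial, capillary and venous genes, although the lists as sums did not part them. At least 2 UMIs of the arterial and Notch list were found in 74 members, of the venous list in 69, and of both in 68. Single genes were more exclusive, but not fully so. Members were therefore grouped first by at least 2 UMIs of Gja4 (12 cells). The others were grouped by at least 2 UMIs of Gpihbp1 with under 2 of Vwf (22 cells), or of Vwf with under 2 of Gpihbp1 (25 cells). Of the 17 cells left over, 4 had at least 2 UMIs of both Gpihbp1 and Vwf. Because Gja4 came first, 4 of the 12 Gja4 cells also had at least 2 UMIs of Gpihbp1, and 2 had at least 2 of Vwf. This grouping was chosen after the values were seen, the cells are treated as 1 sample, and each comparison below is a description of a group against all other members. Gja4 was left out of the counts for the Gja4 cells, which still held Gpihbp1 and Vwf. All of Gja4, Gpihbp1 and Vwf were left out of the counts for the Gpihbp1 and Vwf cells. Depth differed between the groups, with a median of 6504 UMIs in the Gja4 cells, 4716 in the Gpihbp1 cells, 4250 in the Vwf cells and 4913 in the ungrouped cells.

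In the 12 Gja4 cells the arterial list stood out, with 10 of its 14 measured genes higher than in the other members and none lower, where 6.28% of 2627 measured genes were higher and 6.51% lower. Of the 8 venous genes, a count that includes Vwf, 0 were higher and 6 lower. All 29 UMIs of Gja5, a gap junction gene of arteries, lay in 6 of these cells, and all 10 UMIs of Bmx, a kinase gene of arterial endothelium, in 2 of them. Cxcl12, a chemokine, was found in 11 of the 12 cells at 957 CPM, against 79.3 CPM in the other members. Igfbp3 was found in all 12 cells at 2039 CPM, against 492 CPM in the other members. Cldn5 was also higher, at 1338 CPM in the Gja4 cells and 351 CPM in the other members, as was Vegfc, found in 10 of the 12 cells at 299 CPM, against 38.4 CPM. Col18a1, the source of endostatin, led the group at 1174 CPM, against 72.0 CPM in the other members, with 58.77% of its UMIs in 1 cell. Emcn and Plvap, both genes of the rule, were lower at 453 and 412 CPM in the Gja4 cells and 1547 and 1316 CPM in the other members, and Aplnr, Ackr1 and Slco1a4 had 0 UMIs in the Gja4 cells. A single cell of the 12 held 23927 of the group's 97129 UMIs. Without that cell 5 of 12 measured arterial genes were higher and venous genes were lower in 6 of 8 cases. The shares over all genes in this setting are not given here, so these counts have no background beside them. Jag1, at 329 CPM with that cell, stood at 109 CPM in the remaining Gja4 cells and 122 CPM in the other members.

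In the 22 Gpihbp1 cells 5.18% of 2625 measured genes were higher and 3.73% lower than in the other members. Of the capillary and lipid handling genes, 3 of 6 were higher and 1 lower. This list did not single out the Gpihbp1 cells, as 3 of 7 genes were higher and 2 lower in the Gja4 cells. In the Vwf cells 0 of 6 were higher and 5 lower. Ramp3, a partner of the calcitonin receptor-like receptor, led with 72 of its 99 UMIs in 18 of these cells (552 CPM, against 70.5 CPM in the other members). Rgcc, a cell cycle regulator found in capillaries, stood at 1374 CPM in the Gpihbp1 cells and 264 CPM in the other members. Aplnr had 48 of its 84 UMIs in 14 of these cells, and Apln 17 of its 33 UMIs in 9 of them. Plvap, a gene of the rule, was higher, at 1972 CPM in the Gpihbp1 cells and 864 CPM in the other members. The basement membrane list was higher in 6 of 15 cases and lower in 2, with Col15a1 at 207 CPM in the Gpihbp1 cells and 49.6 CPM in the other members. Without the 7 members that held UMIs of another cell type, 4 of 15 were higher and 2 lower, with no share over all genes given for that setting. Spry1, which dampens receptor tyrosine kinase signals, stood at 407 CPM in the Gpihbp1 cells and 78.3 CPM in the other members. Fbln5, an elastic fibre gene, was lower at 30.7 CPM in these cells and 227 CPM in the other members.

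In the 25 Vwf cells 3.01% of 2625 measured genes were higher and 8.95% lower. Of the 7 measured venous genes 4 were higher and 1 lower, and of the 14 arterial genes 0 were higher and 8 lower. Nr2f2 was found in 21 of the 25 cells at 291 CPM, against 159 CPM in the other members, which is under 2-fold. Lrg1, a secreted glycoprotein of venules, stood at 446 CPM in the Vwf cells and 101 CPM in the other members. Ctgf, a matrix-associated growth factor gene, was found in 19 cells at 1088 CPM, against 145 CPM in the other members, and Nrp2 in 21 cells at 365 CPM, against 109 CPM. Slco1a4 had 36 of its 61 UMIs in 14 of these cells, and the other 25 in 7 of the ungrouped ones. Icam1 and Vcam1 were higher, at 311 and 162 CPM in the Vwf cells and 104 and 24.6 CPM in the other members. For Vcam1, 54.17% of the group's UMIs lay in 1 cell, and without the 7 members described above it stood at 109 CPM in the Vwf cells and 27.0 CPM in the other members. Of the 7 measured leukocyte adhesion genes these 2 were higher and 3 were lower, namely Icam2, Cd34 and Podxl, at 142, 277 and 101 CPM in the Vwf cells and 375, 728 and 547 CPM in the other members. Cxcl12 and Cd300lg had 0 UMIs, and Igfbp3 stood at 33.8 CPM in the Vwf cells and 1089 CPM in the other members. The basement membrane list was lower in 10 of 15 cases and higher in none. Col4a1 stood at 588 CPM in the Vwf cells and 1734 CPM in the other members, and Igfbp7 at 1352 CPM in the Vwf cells and 4067 CPM in the other members. Col1a1 led this group by ratio, with 89.24% of its UMIs in 1 cell that is among the 7 members with UMIs of another cell type. Without those 7 members the basement membrane list was lower in 10 of 15 cases, the venous list higher in 4 of 6 and the arterial list lower in 5 of 12. The shares over all genes in that setting are not given here.

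**Figure D5:**
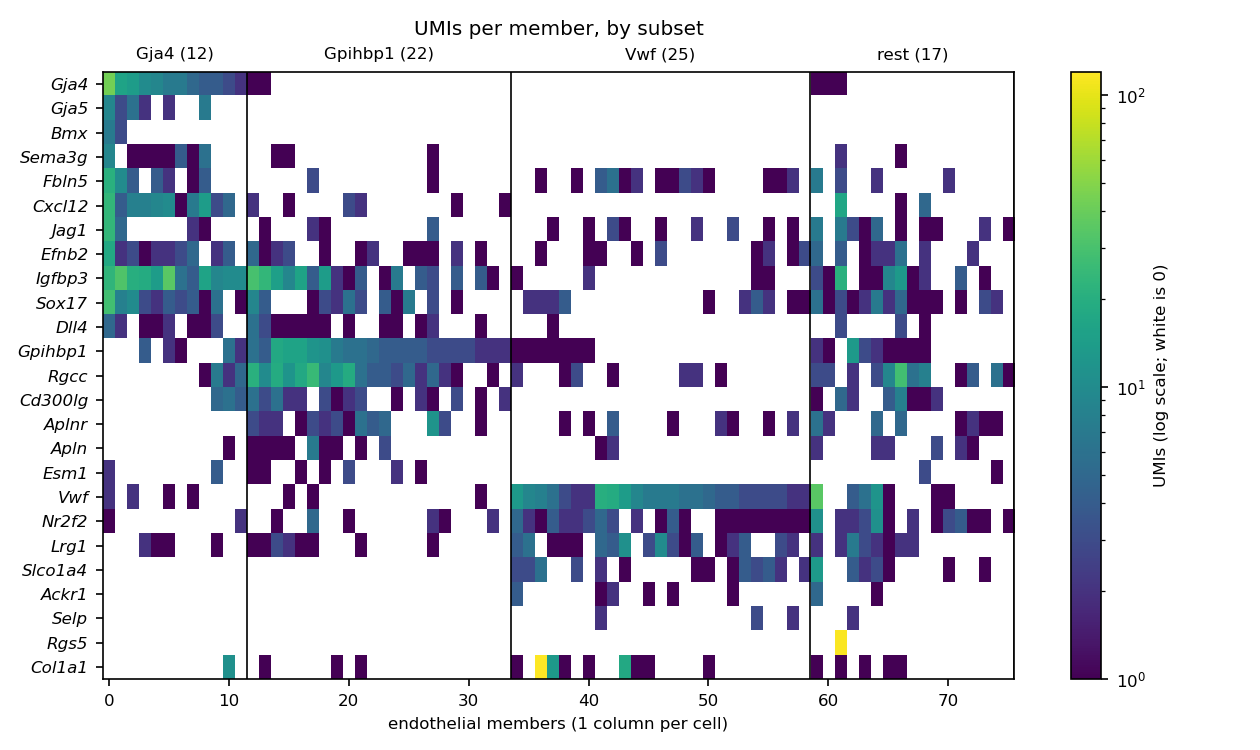
UMIs of 25 genes (rows) in each of the 76 endothelial members (columns), grouped by at least 2 UMIs of Gja4, Gpihbp1 or Vwf, on a log colour scale with white for 0. Gja5 and Bmx appear only among the 12 Gja4 cells, Slco1a4 only among the Vwf and ungrouped cells, and Rgs5 in 1 cell.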

How the data were processed

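The authors deposited 1 matrix of raw UMI counts per gene and barcode (31053 genes, 6794880 barcodes, 68931830 UMIs). The file header gives format version 2 and software version 3.0.2, and the submitters' processing notes name mm10, R 3.4.1 and Seurat 3.4.1. The aligner is not given in the sources used here. Both lanes share the matrix, with 0 per-sample columns left unused.

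Counts were summed per group and divided by the group's total. Exact Poisson intervals were given for levels, conditional binomial intervals for ratios and Clopper-Pearson intervals for shares, all at 95% and covering counting error only. A count of 0 was set to 3 UMIs for bounds. The script was tested on simulated data. Doublets were scored with Scrublet in scanpy 1.11.5. Its automatic threshold called 3 of 4543 kept barcodes, so none was removed, and members above a score of 0.15 were left out as an alternative. Shares were compared after thinning to 2000 UMIs.

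The members and the gene lists were chosen with earlier results of these data known. The grouping of members, the motif and the added checks were chosen after values were seen. Named genes were the 20 leading and 10 lowest by ratio with 5 CPM added, and members of the lists. Genes singled out within the lists were chosen after their values were seen.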

Additional observations from a re-analysis of the deposited data

Results flagged for a closer look

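Signal of the 23 endothelial identity genes was also present in barcodes outside the comparison. Barcodes of 1 to 20 UMIs held these genes at 302.994 CPM (873 UMIs), against 11835.6 CPM in the members and 99.1 CPM in the other kept cells. In those barcodes 3 UMIs would be 1.041 CPM. Another 6 barcodes met the gene rule but had over 20% of their UMIs from mitochondrial genes (20.281 to 30.612%) and were left out, and 5 of them had Flt1, with 31 UMIs in all.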

How the results depend on the processing

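No paired analysis was possible because the matrix has no link from barcodes to titles or animals. Across the other settings tried, some of them chosen after seeing the data, between 62 and 80 barcodes were members. Without a condition on the interval, 3384 genes were higher and 2126 lower, and with the whole interval beyond 2-fold 972 were higher and 578 lower, 55 of the lower ones being listed genes. In the other settings 1504 to 2019 genes were higher and 1231 to 1841 lower. The thinned share with Cldn5 was 32.0% at 1000 UMIs and 72.368% without thinning, and that with Flt1 was 62.667% and 94.737%. The log2 ratio of Nid1 was -0.0796 against the mesenchymal gate, and that of Rgs5 was -0.29 without the 7 members that held UMIs of other cell types. Why these values moved was not tested. The median log2 ratio of all genes was 0.18, and it was 0.85 with no minimum count and -0.002 against the mesenchymal gate. With 513535 UMIs in the members, a gene under 5.84 CPM could not be told from 0.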
